A study of Mus musculus with 21 samples.

Results

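The transcripts of the insulin-like growth factor 1 (IGF1) axis were followed in mouse liver: the hormone gene Igf1, the genes of 4 binding proteins (Igfbp1, Igfbp2, Igfbp3 and Igfbp4), the acid-labile subunit Igfals, the growth hormone receptor Ghr, the insulin receptor Insr and the receptor adaptors Irs1 and Irs2. They were the rows of the count table whose Ensembl identifier carried one of these symbols in GENCODE M21 (GRCm38), 10 genes of 46078 in all. All 10 were found and all 10 passed the filter on low counts, which left 14370 genes to be tested. The rule that selects the rows uses no measured value, but the genes were picked with earlier results of these data known.

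The libraries were bulk poly(A) RNA sequencing of liver from male mice on a mixed 129 and C57BL/6 background, at least 9 weeks old when the diets began. KO animals lacked Cse (official symbol Cth), whose product cystathionine γ-lyase releases cysteine from cystathionine, a product of methionine. The comparison animals are labelled WT, although the study's text describes heterozygous Cse+/- controls, so that WT is used below as the label only. The diets were a defined amino acid diet (CTR) and the same diet without cysteine (noCys) or without tryptophan (noTrp), with the other amino acids raised in proportion. According to the study's methods every animal was also calorie restricted, controls included, and had a run-in on the restricted control diet before the switch. On CTR there were 3 WT and 4 KO animals. On noCys there were 4 WT and 3 KO animals, the latter with the replicate numbers 1, 3 and 4, and on noTrp 2 WT and 5 KO animals. Cse was deleted in the whole body and not in the liver alone.

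Growth hormone binds its receptor on hepatocytes and, through the kinase JAK2 and the factor STAT5, raises transcription of Igf1, Igfals and the feedback inhibitors of the Socs family. Liver supplies most circulating IGF1, which travels in a complex with IGFBP3 and the acid-labile subunit or with the smaller binding proteins. Insulin acts through its receptor and the IRS adaptors, keeps FOXO factors out of the nucleus, and so holds down Igfbp1 and Irs2, which are known to rise in fasted liver. Fasting and protein restriction are known to lower hepatic Igf1.

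Values for single libraries are CPM, counts relative to the library size after scaling by TMM, the trimmed mean of log ratios. Fold changes are log2 values of the first group minus the second with a standard error (SE), from edgeR's quasi-likelihood F-test over all 21 libraries, and an adjusted p is the Benjamini-Hochberg value over the 14370 genes tested. A gene was called when that value was under 0.05. Libraries held 8889951 to 27230852 counts. The targeted gene Cth stood at 6.34 to 15 CPM in the 12 KO libraries and at 108 to 452 CPM in the 9 WT libraries, so that the libraries matched their genotype labels. Liver identity was clear from hepatocyte transcripts: Alb averaged 49150 CPM, while the skeletal muscle markers summed to at most 2.38 CPM in any library. Replicates were separate animals as far as the titles say, and p-values measure the spread between these libraries.

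Of the 10 genes, 9 had a window in the RefSeq table of mouse promoters (assembly GRCm38.p6), with 13 start sites between them, and Insr had none. The 250 bases before each start were searched on both strands for the letters of 5 motifs tied to insulin, FOXO, growth hormone, stress and glucocorticoid signals. The insulin response core CAAAACA occurred in 3 of the 13 windows, 1 each of Igfbp1, Irs1 and Irs2, and in 5.56% of all 32851 windows. The STAT motif TTCNNNGAA occurred in 2 of the 13, both of Igfals, and in 7.02% of all windows. The FOXO motif GTAAACA was found once, also in Igfals (3.17% of all windows). The composite site TTGCATCA of C/EBP and ATF factors (0.791%) and the palindromic glucocorticoid receptor motif (0.387%) were found in none of the 13. The motifs CAAAACA and GTAAACA do not overlap in these windows. The 5 windows that hold a match are shown 5′ to 3′ on the strand of the gene, since they are the windows the counts above rest on, with the matched letters in capitals, and a match is a description of the letters only. Igfbp1 and Igfals lie on the plus strand and Irs1 and Irs2 on the minus strand.
Igfbp1 chr11:7197537-7197786: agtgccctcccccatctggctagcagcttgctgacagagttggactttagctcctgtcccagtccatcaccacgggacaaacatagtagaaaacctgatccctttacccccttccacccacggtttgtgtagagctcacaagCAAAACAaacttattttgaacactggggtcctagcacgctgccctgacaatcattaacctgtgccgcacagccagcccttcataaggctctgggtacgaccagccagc
Irs2 chr8:11008930-11009179: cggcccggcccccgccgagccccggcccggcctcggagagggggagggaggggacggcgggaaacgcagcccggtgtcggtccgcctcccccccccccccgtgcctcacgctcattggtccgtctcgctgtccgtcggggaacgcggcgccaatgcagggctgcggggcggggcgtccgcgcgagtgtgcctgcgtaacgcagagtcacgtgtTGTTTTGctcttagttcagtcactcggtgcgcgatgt
Irs1 chr1:82291440-82291689: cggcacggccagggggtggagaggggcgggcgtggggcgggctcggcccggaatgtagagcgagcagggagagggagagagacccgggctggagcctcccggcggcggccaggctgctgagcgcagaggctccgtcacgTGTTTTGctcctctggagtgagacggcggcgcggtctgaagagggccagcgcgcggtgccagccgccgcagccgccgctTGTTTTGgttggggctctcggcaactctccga
Igfals chr17:24877594-24877843: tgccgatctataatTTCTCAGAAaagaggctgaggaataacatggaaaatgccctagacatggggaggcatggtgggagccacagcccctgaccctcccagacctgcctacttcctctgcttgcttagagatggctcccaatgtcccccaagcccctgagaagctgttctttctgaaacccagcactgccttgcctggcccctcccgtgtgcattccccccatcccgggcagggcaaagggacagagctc
Igfals chr17:24877981-24878230: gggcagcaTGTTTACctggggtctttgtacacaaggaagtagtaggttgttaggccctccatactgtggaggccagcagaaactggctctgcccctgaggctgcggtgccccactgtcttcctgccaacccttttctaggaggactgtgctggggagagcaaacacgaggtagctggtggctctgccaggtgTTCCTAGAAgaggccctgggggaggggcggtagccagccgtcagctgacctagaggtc
The match in Igfbp1 began 108 bases before the start and read forward. In Irs2 it lay 37 bases before the start and in Irs1 111 and 32 bases before it, all on the other strand. The 2 STAT letters of Igfals lay 236 and 58 bases before their respective starts.

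The members spanned a wide range of levels. Scaled to the length of their exons, mean CPM per kilobase over the 21 libraries was 713 for Igfbp4, 527 for Igfbp2, 288 for Igfbp1, 83.9 for Igf1, 40.2 for Ghr, 35.8 for Igfals, 12.4 for Igfbp3, 9.3 for Insr, 1.26 for Irs2 and 0.244 for Irs1. The binding proteins other than Igfbp3 thus outranked the hormone per length, and the adaptors were the lowest. Levels moved least between libraries for Igfbp4, with the highest 1.57 times the lowest, and most for Igfbp1, with a factor of 70.2. A difference among the 6 groups was called for 7 of the 10 members, against 28.7% of all genes tested. That number fell to 4 with the replicate block and without WT CTR replicate 1 or KO noCys replicate 3 or 4. The 3 without a call were Igfbp3 (adjusted p = 0.404), Igfbp4 (0.373) and Irs1 (0.726).

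**Figure D1:**
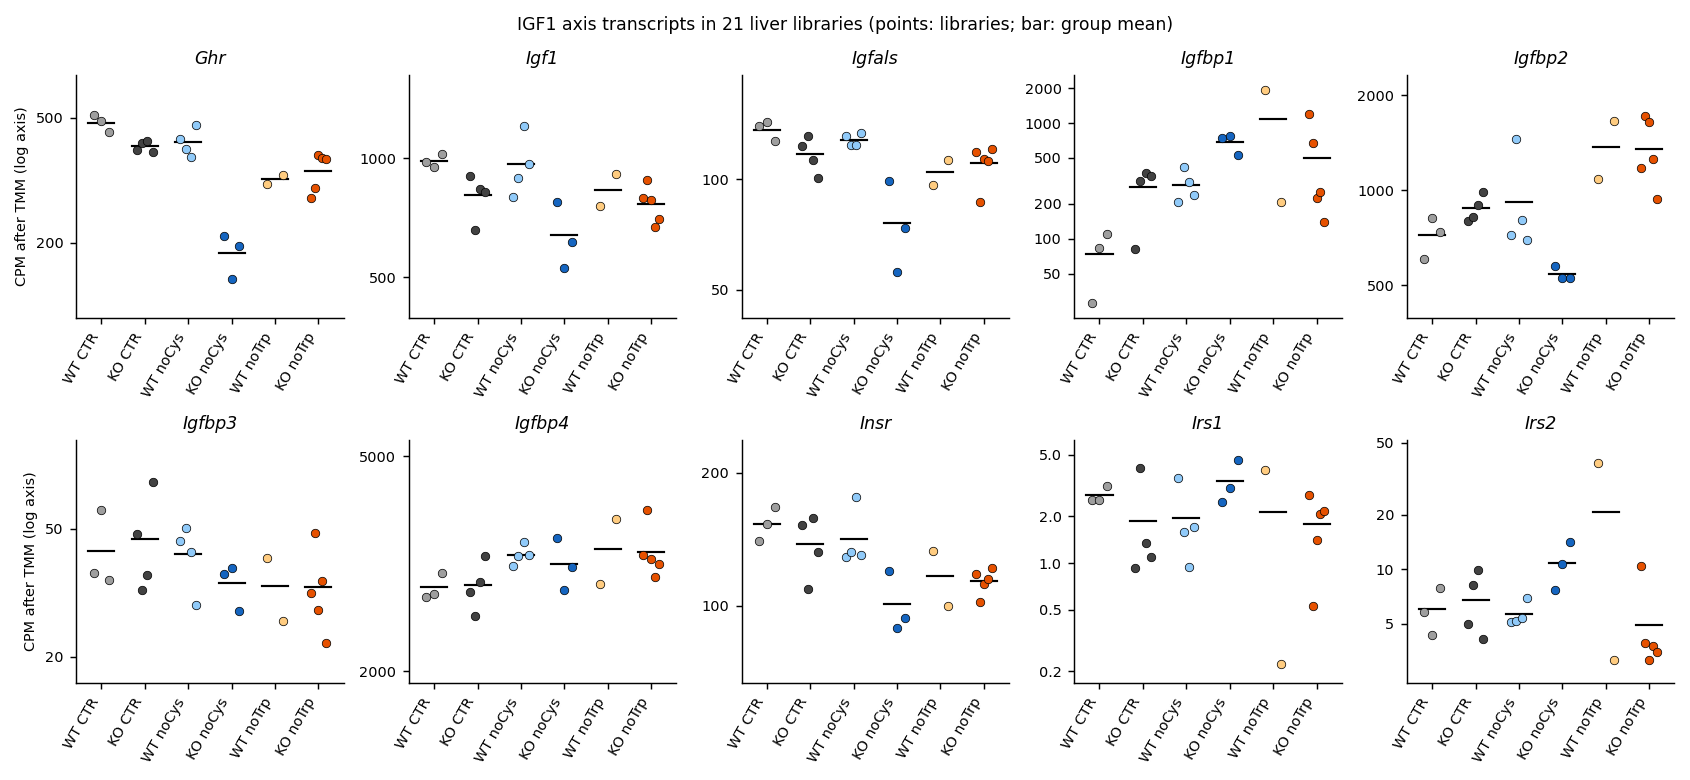
CPM of the 10 members in each of the 21 libraries on a log axis, by genotype and diet, with a bar at the mean of each group. The 3 KO noCys libraries hold the 3 lowest values of Ghr (154 to 210 CPM) and of Igfbp2 (526 to 575 CPM), and Igfbp1 and Irs2 have a single WT noTrp library at 1946 and 38.5 CPM.

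Without cysteine, KO liver held less RNA of the growth hormone receptor, of Igf1 and its partner Igfals, of Igfbp2 and of the insulin receptor than WT liver on the same diet. In all, 5 of 10 members were called lower and none higher, against 28.2% of all genes called in either direction and 13.4% called lower. The number called fell to 2 without KO noCys replicate 3 and to 3 without KO noCys replicate 4 or with library totals alone in place of TMM scaling. The median log2 fold change of the members was -0.40 and that of all genes -0.02. Of the members, 7 did not overlap between the groups (5 lower, 2 higher), against 37.6% of all genes. The 2 higher ones, Igfbp1 and Irs2, were not called. In bulk liver, fewer cells of a type and less RNA per cell cannot be told apart.

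Ghr, the receptor through which growth hormone acts on hepatocytes, had the smallest adjusted p of the members in KO noCys against WT noCys. It stood at 509, 489 and 452 CPM in WT CTR and at 396, 417, 421 and 388 CPM in KO CTR. Without cysteine it was 429, 399, 375 and 474 CPM in WT and 210, 154 and 195 CPM in KO. Without tryptophan it was 309 and 330 CPM in WT and 277, 298, 381, 372 and 371 CPM in KO. The 3 KO noCys libraries were thus the lowest of the 21 and overlapped no other group. The log2 difference was -1.17 (SE 0.13, edgeR adjusted p = 2.96e-06) from WT noCys, which leaves 44.4% of the WT level. From KO CTR it was -1.12 (SE 0.13, adjusted p = 7.77e-06) and from KO noTrp -0.87 (SE 0.12, adjusted p = 0.000137). Cysteine removal lowered Ghr more in KO than in WT by -0.92 (SE 0.18, adjusted p = 0.00393 for the interaction), the only member with a called interaction, beside 7.44% of all genes. These comparisons share the KO noCys libraries. In the order of the group means, KO noTrp and KO CTR did not overlap, nor did KO noCys and WT noTrp, whereas the other neighbouring groups did.

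Igf1, the hormone itself, stood at 975, 952 and 1025 CPM in WT CTR and 902, 660, 835 and 823 CPM in KO CTR. It stood at 797, 893, 1204 and 964 CPM in WT noCys and at 775, 527 and 615 CPM in KO noCys. All 3 KO noCys values lay below all 4 of WT noCys, while the 775 CPM library fell within the range of KO CTR. The log2 difference of Igf1 between KO noCys and WT noCys was -0.59 (SE 0.15, adjusted p = 0.00617), at 66.2% of the WT level. Leaving out KO noCys replicate 3 ended the call (-0.47, adjusted p = 0.0566). Against KO CTR the difference was -0.33 (SE 0.15, adjusted p = 0.125), from -0.50 to -0.21 with 1 library left out. It was called by limma-voom (-0.41, adjusted p = 0.0188) and without KO noCys replicate 1 (-0.50, adjusted p = 0.0353), and was -0.21 without KO noCys replicate 3. Against KO noTrp it was -0.26 (SE 0.14, adjusted p = 0.238). Without tryptophan the values were 755 and 911 CPM in WT and 668 to 881 CPM in KO (median 785), which overlap. Every neighbouring pair of groups overlapped in the order of the Igf1 means.

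Igfals, the acid-labile subunit that extends the half-life of the IGF1 and IGFBP3 complex, was 131, 124, 124 and 134 CPM in WT noCys and 98.9, 56 and 73.6 CPM in KO noCys. The control diet gave 140, 143 and 127 CPM in WT and 123, 131, 113 and 101 CPM in KO. Without tryptophan it was 96.5 and 113 CPM in WT and 119, 86.7, 114, 112 and 121 CPM in KO. KO noCys lay below WT noCys and both control diet groups without overlap, and its highest library fell within the ranges without tryptophan. The log2 difference was -0.76 (SE 0.15, adjusted p = 0.000891) from WT noCys, -0.62 (SE 0.15, adjusted p = 0.00582) from KO CTR and -0.54 (SE 0.14, adjusted p = 0.0153) from KO noTrp. The call from WT noCys stayed with each of the 7 libraries left out. The call from KO CTR was lost without KO noCys replicate 3 (-0.44, adjusted p = 0.0564), and that from KO noTrp was lost without KO noCys replicate 3 (-0.36, adjusted p = 0.144) or replicate 4 (-0.52, adjusted p = 0.0643) and in the fit of only those groups (-0.55, adjusted p = 0.0671).

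Igfbp2, a binding protein made in liver and known to rise in fasting, was 722, 1456, 807 and 696 CPM in WT noCys and 575, 529 and 526 CPM in KO noCys. WT noCys replicate 2 stood well above its group, and the KO noCys libraries lay within 1.09 times of each other. The difference of Igfbp2 between those groups was -0.76 (SE 0.24, adjusted p = 0.0206). The call was lost without WT noCys replicate 2 (-0.45, adjusted p = 0.0996) and without KO noCys replicate 3 (-0.74, adjusted p = 0.0759) or replicate 4 (-0.74, adjusted p = 0.065). With library totals alone in place of TMM the difference was -0.55 (adjusted p = 0.079). On the control diet Igfbp2 was 604, 818 and 737 CPM in WT and 801, 822, 898 and 988 CPM in KO, and without tryptophan 1085 and 1653 CPM in WT and 1172, 1721, 1641, 1258 and 941 CPM in KO. The noTrp libraries thus held most of the highest values and the KO noCys libraries the 3 lowest. The difference of KO noCys from KO noTrp was -1.31 (SE 0.23, adjusted p = 0.0011), a level of 40.4%. From KO CTR it was -0.69 (SE 0.23, adjusted p = 0.0426), a call that remained in 1 of the 7 fits that left out a library and was lost with library totals alone (-0.57, adjusted p = 0.091). The interaction of cysteine removal with genotype was -1.04 (SE 0.33, adjusted p = 0.0589), short of a call, although 5 of the 7 other settings called it, among them DESeq2 (adjusted p = 0.0227) and limma-voom (0.02). It was called in 1 of the 14 fits that left out a library, at -1.16 to -0.74 over those fits, the last without WT noCys replicate 2.

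Insr, the insulin receptor, was 129, 132, 176 and 130 CPM in WT noCys and 120, 89 and 93.9 CPM in KO noCys. The groups did not overlap, by a gap from 120 to 129 CPM. The difference was -0.49 (SE 0.15, adjusted p = 0.0164), with 71.3% of the WT level. It lost its call with library totals alone (-0.28, adjusted p = 0.083), and without WT noCys replicate 3 (-0.37, adjusted p = 0.0632), KO noCys replicate 3 (-0.40, adjusted p = 0.103) or KO noCys replicate 4 (-0.44, adjusted p = 0.0704). Insr was 140, 153 and 167 CPM in WT CTR and 152, 109, 158 and 132 CPM in KO CTR. From KO CTR the difference was -0.45 (SE 0.14, adjusted p = 0.034), with overlapping groups, and the call was lost without KO CTR replicate 1 or 3 or KO noCys replicate 3 or 4 (-0.40, -0.37, -0.36 and -0.40), with library totals alone (-0.33, adjusted p = 0.059) and in the fit of only those groups (-0.46, adjusted p = 0.0695). Without tryptophan Insr was 133 and 100 CPM in WT and 102 to 122 CPM in KO. From KO noTrp it was -0.17 (SE 0.14, adjusted p = 0.433).

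**Figure D2:**
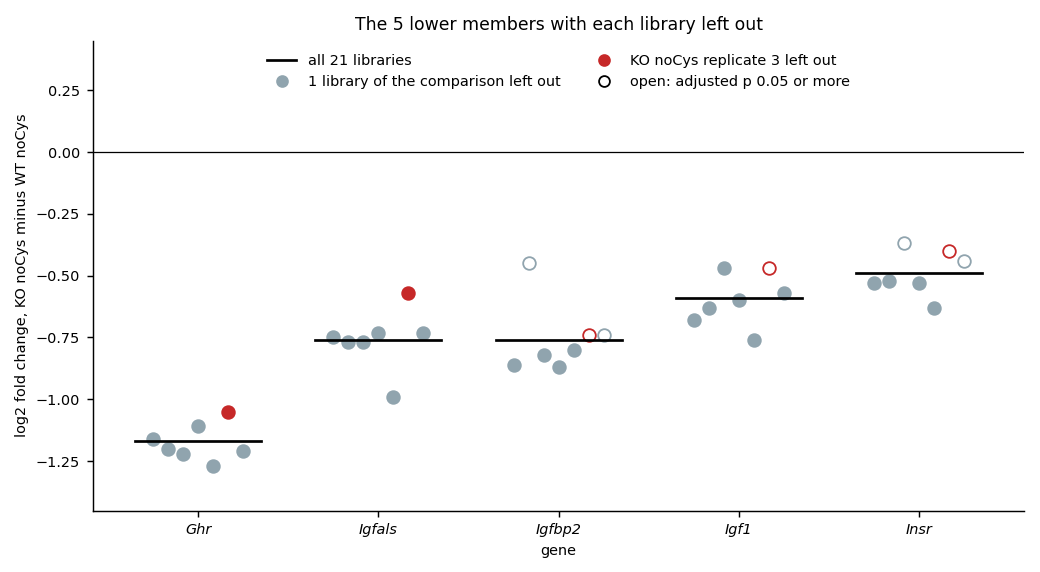
log2 fold change of KO noCys against WT noCys for the 5 members called lower, with a line for all 21 libraries and a point for each fit with 1 library of the comparison left out, filled where the adjusted p stays under 0.05. Ghr stays between -1.27 and -1.05 and Igfals between -0.99 and -0.57 with every point filled, and Igf1, Igfbp2 and Insr each have open points.

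Igfbp1, the binding protein that insulin represses, ran the other way in level. It was 27.7, 83 and 110 CPM in WT CTR, and 81.8, 316, 371 and 350 CPM in KO CTR. Without cysteine it was 210, 421, 308 and 237 CPM in WT, and 749, 772 and 527 CPM in KO. Without tryptophan it was 1946 and 206 CPM in WT, and 1198, 678, 224, 253 and 141 CPM in KO. KO noCys stood above WT noCys and KO CTR without overlap, and WT noCys above WT CTR without overlap. None of those differences was called: 1.22 (SE 0.68, adjusted p = 0.191) for KO noCys against WT noCys, 1.29 (SE 0.68, adjusted p = 0.195) against KO CTR, 2.0 (SE 0.74, adjusted p = 0.215) for WT noCys against WT CTR and 1.93 (SE 0.73, adjusted p = 0.365) for KO CTR against WT CTR. With only the 2 groups compared in the fit, the first (adjusted p = 0.00294) and the third (0.032) were called.

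Irs2, the insulin receptor substrate that rises in fasted liver, was 5.13, 5.18, 5.41 and 6.95 CPM in WT noCys and 7.67, 10.7 and 14.2 CPM in KO noCys, with no overlap and a difference of 0.94 (SE 0.53, adjusted p = 0.197). limma-voom (1.03, adjusted p = 0.0461) and the fit of only those groups (adjusted p = 0.0074) called it. In WT CTR it was 5.82, 4.33 and 7.9 CPM and in KO CTR 4.99, 8.24, 9.92 and 4.11 CPM. Irs1, the other adaptor, was low everywhere, at 0.224 to 4.63 CPM. It was 3.56, 1.58, 0.95 and 1.71 CPM in WT noCys and 2.48, 3.05 and 4.63 CPM in KO noCys, and the difference was 0.76 (SE 0.60, adjusted p = 0.361). The exons of both adaptor genes overlap a gene on the opposite strand, Gm9747 for Irs1 and 9530052E02Rik for Irs2. Those partners had at most 0 and 3 counts in any library, and reads from the overlap cannot be told apart where the strand setting of the counting is not given.

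Igfbp3, the main carrier of circulating IGF1, made in liver chiefly outside hepatocytes, was 45.9, 50.3, 42.2 and 28.9 CPM in WT noCys and 36.2, 37.8 and 27.8 CPM in KO noCys. The groups overlapped and the difference was -0.30 (SE 0.28, adjusted p = 0.445). Its levels in the other groups were 34.6 to 57.1 CPM in WT CTR, 32.3 to 69.9 CPM in KO CTR, 25.8 and 40.6 CPM in WT noTrp and 22.1 to 48.5 CPM in KO noTrp, and no 2 neighbours in the order of the means were free of overlap. Igfbp4, which is known to restrain IGF1 action, was 3129 to 3470 CPM in WT noCys and 3535, 2827 and 3121 CPM in KO noCys, a difference of -0.06 (SE 0.12, adjusted p = 0.763). Across the 8 comparisons of 2 groups the log2 values of Igfbp4 ran from -0.07 to 0.24.

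The balance of binding proteins to hormone was computed per library from CPM per kilobase, as a description. Igfbp1 over Igf1 was 0.185 to 0.695 in WT CTR, 0.589 to 3.11 in KO CTR and 1.6 to 3.06 in WT noCys. In KO noCys it was 6.28, 9.52 and 5.56, above every library of those 3 groups. Without tryptophan the ratio was 16.7 and 1.47 in WT and 1.31 to 9.84 in KO, and so spanned the KO noCys values. Igfbp1 made up 25.7 to 35% of the summed per-kilobase level of the 4 binding proteins in KO noCys, against 11 to 15.2% in WT noCys, 1.86 to 6.14% in WT CTR and 4.72 to 17.3% in KO CTR. Without tryptophan that share was 50.4% and 7.09% in WT and 6.98 to 36.1% in KO, so that 1 library of each of these groups exceeded every KO noCys library.

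On the control diet, none of the 10 members was called between KO and WT by edgeR, DESeq2 or limma-voom, where 0.32% of all genes were called, and 1 member (Igfbp1) had an unadjusted p under 0.05. Igf1 (-0.29, SE 0.15, adjusted p = 0.552) and Ghr (-0.25, SE 0.12, adjusted p = 0.526) were lower in every KO library than in every WT library, 2 of 10 members without overlap beside 10.9% of all genes. In WT, cysteine removal called none of the members with edgeR or DESeq2 and 1 (Igfbp1) with limma-voom, against 0.661% of all genes called by edgeR, and 1 member had an unadjusted p under 0.05. Without overlap, Igfbp1 and Igfbp4 were higher in WT noCys than in WT CTR (2 of 10, against 16.4% of all genes).

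In KO, cysteine removal lowered 4 of the 10 members against KO CTR (Ghr, Igfals, Igfbp2 and Insr) and raised none, beside 20.2% of all genes called and 9.59% called lower. That number fell to 1 without KO noCys replicate 3, and to 2 without KO noCys replicate 4, without KO CTR replicate 1 or 3 or with library totals alone. Against KO noTrp, 3 members were lower (Ghr, Igfbp2 and Igfals), beside 13.9% of all genes called and 6.75% called lower, and 2 did not overlap (Ghr and Igfbp2, both lower, beside 19.6% of all genes). Not overlapping with KO CTR were 4 members, 3 lower and 1 higher (28.6% of all genes).

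**Figure D3:**
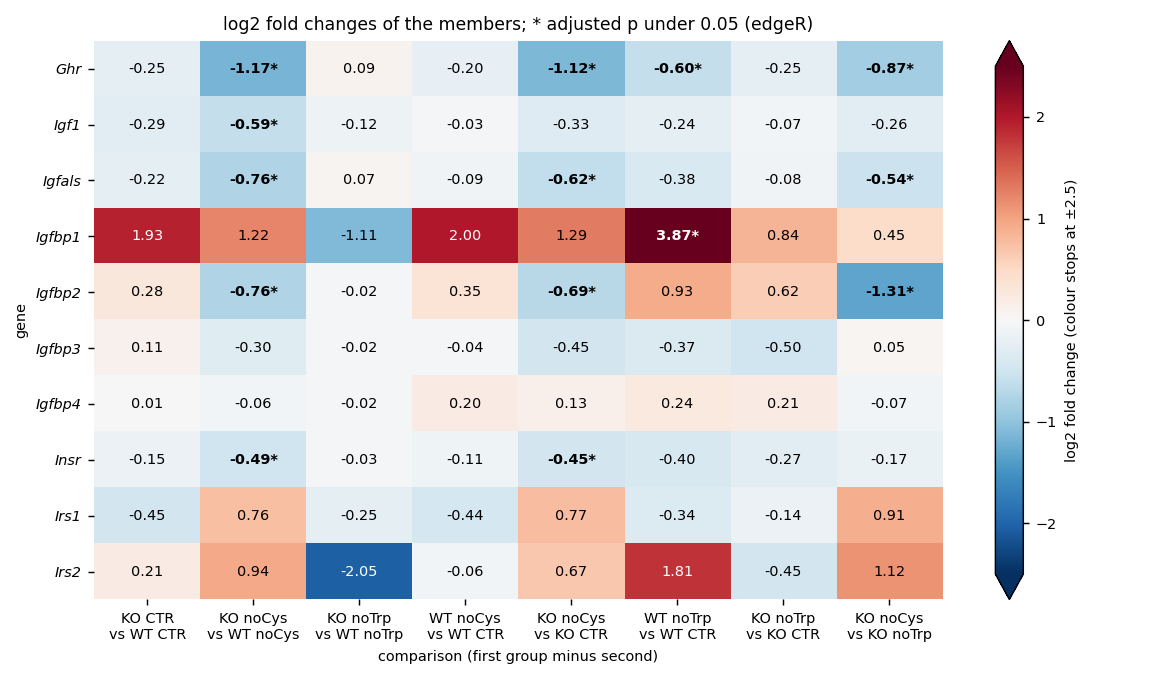
log2 fold change of each member in the 8 comparisons of 2 groups (first group minus second), coloured from blue for lower to red for higher and starred where the adjusted p is under 0.05. The starred values sit in the 3 comparisons that involve KO noCys, all lower, and in WT noTrp against WT CTR, where Igfbp1 is 3.87 and Ghr -0.60.

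Tryptophan removal was followed in each genotype. In WT, 2 of 10 members were called against WT CTR, beside 3.19% of all genes: Igfbp1 higher by 3.87 (SE 0.86, adjusted p = 0.0189) and Ghr lower by -0.60 (SE 0.15, adjusted p = 0.0359). Both rest on few libraries. Without WT noTrp replicate 1 (1946 CPM), Igfbp1 was 1.49 (adjusted p = 0.445), where the one remaining library is assumed to vary like the other groups. Leaving out any 1 of the 3 WT CTR libraries also ended its call (adjusted p = 0.0517 to 0.0802). Ghr was -0.64 to -0.55 with each of the 5 libraries left out and was then never called (adjusted p = 0.0614 to 0.2). Of the 7 other settings tried, 2 kept the Ghr call, and Igfbp1 lost its call with limma-voom (adjusted p = 0.146), with the replicate block (0.0593) and in the fit of only those groups (0.159). Igfbp2 was 0.93 (SE 0.27, adjusted p = 0.0687), which DESeq2 (0.92, adjusted p = 0.0261), library totals alone (0.0407), no filter (0.0264) and the replicate block (0.0461) called. With 1 library left out it was never called, and ran from 0.59 without WT noTrp replicate 2 to 1.2 without WT noTrp replicate 1. Of the members, 6 did not overlap between those groups, 2 higher and 4 lower, beside 30.6% of all genes. Igfbp1 and Igfbp2 were the higher ones, and Igf1, Igfals, Ghr and Insr the lower. Those 4 were also called lower in KO noCys against WT noCys. Insr was -0.40 (SE 0.17, adjusted p = 0.229), Igfals -0.38 (SE 0.18, adjusted p = 0.261) and Igf1 -0.24 (SE 0.18, adjusted p = 0.511), none of them called. At an unadjusted p under 0.05 stood 6 members and 2615 genes.

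WT noTrp replicate 1 also held the highest Irs2 of all libraries, at 38.5 CPM beside 3.14 CPM in replicate 2. In KO noTrp Irs2 was 10.4, 3.9, 3.17, 3.76 and 3.51 CPM. Irs2 was 1.81 (SE 0.63, adjusted p = 0.121) for WT noTrp against WT CTR, and -0.92 (adjusted p = 0.533) without that library. The value for KO noTrp against WT noTrp turned from -2.05 (SE 0.54, adjusted p = 0.136) to 0.68 (adjusted p = 0.753). In KO, none of the 10 members was called after tryptophan removal by edgeR, DESeq2 or limma-voom, against 1.87% of all genes, and 3 members had an unadjusted p under 0.05. Ghr alone did not overlap between KO noTrp and KO CTR, being lower in the former (6.33% of all genes did not overlap). Igfbp2 had the smallest p, at 0.62 (SE 0.21, adjusted p = 0.123), and was called only with the replicate block (0.69, adjusted p = 0.0408). Between the genotypes on this diet none was called by those 3 tools (0.195% of all genes), and 1 member, Irs2, had an unadjusted p under 0.05, with 0 members free of overlap beside 9.94% of all genes. The interaction of tryptophan removal with genotype called 0 members and 0 genes with edgeR (821 genes and 2 members, Igfbp1 and Irs2, at an unadjusted p under 0.05), 13 genes and 0 members with DESeq2, and 0 of either with limma-voom.

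The genotype difference itself was compared between both depleted diets. It differed for 3 of the 10 members, beside 6.35% of all genes. For Ghr it was -1.17 (SE 0.13) without cysteine and 0.09 (SE 0.14, adjusted p = 0.928) without tryptophan. These differed by -1.26 (SE 0.19, adjusted p = 0.000589), and this held with every library left out, at -1.35 to -1.14. Igfals differed by -0.83 (SE 0.22, adjusted p = 0.0287), which was lost without WT noTrp replicate 1 (-0.72, adjusted p = 0.124), KO noCys replicate 3 (-0.65, adjusted p = 0.0862) or replicate 4 (-0.81, adjusted p = 0.0619), with library totals alone (-0.65, adjusted p = 0.0705) and in the fit of only those groups (adjusted p = 0.0613). Irs2 differed by 2.99 (SE 0.76, adjusted p = 0.0228), which was lost without KO noCys replicate 3 (3.01, adjusted p = 0.056) or replicate 4 (2.75, adjusted p = 0.0611), and fell to 0.26 (adjusted p = 0.882) without WT noTrp replicate 1. Its call was also lost with limma-voom (2.49, adjusted p = 0.0672) and with the replicate block (2.61, adjusted p = 0.0852).

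The genes around the growth hormone receptor gave a mixed picture. Of 9 listed, 2 were lower in KO noCys than in WT noCys and none higher, with a median log2 value of -0.55, beside 28.2% of all genes called, 13.4% called lower and a median of -0.02 over all genes. Jak2, the kinase bound to the receptor, fell by 0.60 (SE 0.18, adjusted p = 0.016), from 11.3 to 13.9 CPM in WT noCys to 7.67 to 8.36 CPM in KO noCys. Socs1, a feedback inhibitor of JAK kinases, was at most 1.01 CPM in both groups and was -1.34 (SE 0.43, adjusted p = 0.0255). The Jak2 call was lost without KO noCys replicate 3 (-0.61, adjusted p = 0.0569) and with library totals alone (-0.38, adjusted p = 0.126). The Socs1 call was lost without WT noCys replicate 2 (-1.25), KO noCys replicate 3 (-1.10) or KO noCys replicate 4 (-1.35), and with no filter (-1.33, adjusted p = 0.0775). Stat5a (-0.10, adjusted p = 0.699) and Stat5b (0.01, adjusted p = 0.973), the factors that carry the signal to Igf1, were not called. Against KO CTR, 3 of 9 were lower, beside 20.2% of all genes called and 9.59% called lower: Jak2 (-0.61, adjusted p = 0.02), Socs2 (-1.50, adjusted p = 0.0206) and Cish (-2.24, adjusted p = 0.0447), the last 2 being STAT5 target genes that limit the signal. In WT, cysteine removal gave -0.89 (adjusted p = 0.351) for Socs2 and -1.61 (adjusted p = 0.294) for Cish, neither called. Their interactions of cysteine removal with genotype were -0.62 (adjusted p = 0.581) and -0.63 (adjusted p = 0.764). Between KO noCys and WT noCys they were -0.65 (adjusted p = 0.281) and -0.99 (adjusted p = 0.365). Socs2 ranged from 27.4 to 114 CPM in KO CTR and from 14.2 to 26.2 CPM in KO noCys, and both it and Cish lost their calls without KO CTR replicate 1, KO noCys replicate 3 or KO noCys replicate 4, with values down to -0.97 for Socs2 and -1.30 for Cish, and Cish lost its call also with limma-voom, with library totals alone and in the fit of only those groups. The Jak2 call against KO CTR was lost with library totals alone and without KO CTR replicate 3 or any 1 of the 3 KO noCys libraries (-0.68 to -0.54 over the 7 fits). Socs3, another feedback inhibitor, which cytokines also raise, was higher in WT noTrp (26.9 and 60.2 CPM) than in WT CTR (6.42 to 11.3 CPM) by 2.37 (SE 0.33, adjusted p = 0.00233), and lower in KO noTrp than in WT noTrp by -1.75 (SE 0.28, adjusted p = 0.0061). Without WT noTrp replicate 1 these were 1.67 (adjusted p = 0.0382) and -1.06 (adjusted p = 0.324), and the second was also lost with limma-voom (-1.65, adjusted p = 0.0594) and in the fit of only those groups (adjusted p = 0.173), as was the first in the latter. Its genotype difference also differed between the diets, by 1.67 (SE 0.40, adjusted p = 0.0155), a call lost without KO noCys replicate 3 or WT noTrp replicate 1 (down to 0.98).

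**Figure D4:**
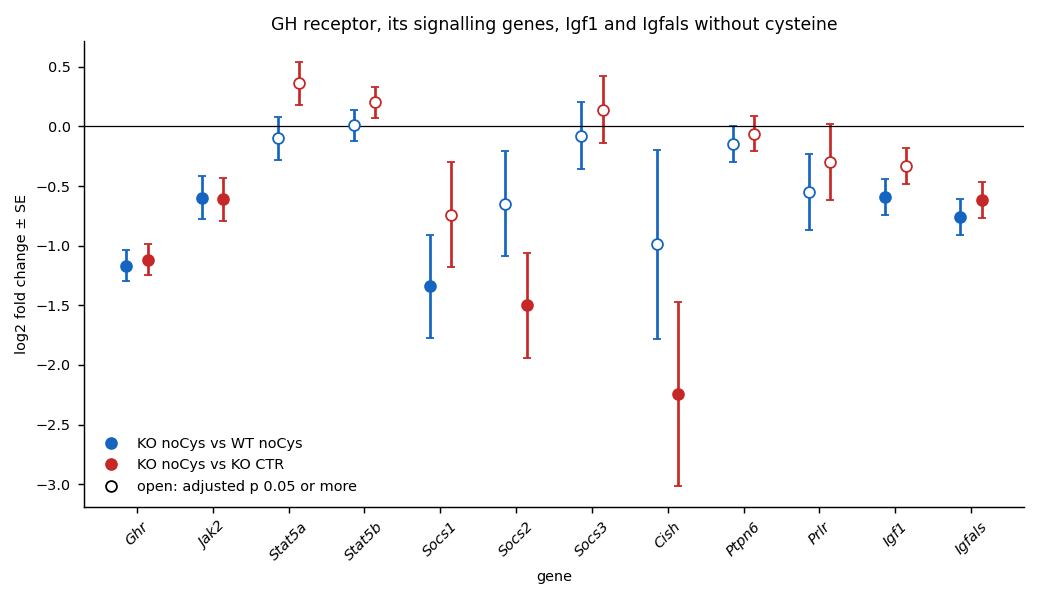
log2 fold change with SE bars for Ghr, the 9 genes of growth hormone receptor signalling, Igf1 and Igfals in KO noCys against WT noCys (blue) and against KO CTR (red), filled where the adjusted p is under 0.05. Ghr, Jak2 and Igfals are filled and lower in both, Stat5a and Stat5b lie between -0.10 and 0.36, and Cish has the widest bars.

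Of 11 other IGF genes, 6 passed the filter. The IGF1 receptor Igf1r, at 0.0746 to 0.805 CPM, did not, nor did Igfbpl1, Pappa, Pappa2 and Stc1. In KO noCys against WT noCys 3 of the 6 were called, beside 28.2% of all genes. Igfbp7, a binding protein of low IGF affinity, was lower by -0.59 (SE 0.16, adjusted p = 0.00938), with 66.5 to 73.6 CPM beside 92.5 to 125 CPM, and lost its call without KO noCys replicate 3 (-0.54, adjusted p = 0.0532) and with library totals alone (-0.38, adjusted p = 0.0954). Stc2, an inhibitor of IGFBP proteases, was -1.30 (SE 0.48, adjusted p = 0.0483) at levels of at most 1.42 CPM, and kept its call in 1 of the 7 fits with a library left out, all but that without WT noCys replicate 2 losing it, and in 3 of the 7 other settings. Igf2r, which clears IGF2, was higher by 0.30 (SE 0.10, adjusted p = 0.0259), and lost its call without WT noCys replicate 2 or 3 or KO noCys replicate 1 or 3 (0.22 to 0.30) and in 3 of the 7 other settings.

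Of 25 genes of insulin and IGF1 receptor signalling, all tested, 6 were called in KO noCys against WT noCys, 2 higher and 4 lower (median -0.11), beside 28.2% of all genes, so that the number called does not set the list apart. The phosphatase Ptprf (-0.70, adjusted p = 9.17e-05) and the insulin-restrained factors Foxo1 (-0.98, adjusted p = 0.00226) and Foxo3 (-0.77, adjusted p = 0.0053) were lower, and the adaptor Shc1 (0.58, adjusted p = 0.000497) was higher. These 4 kept their calls with each library left out. Foxo1 was 124 to 193 CPM in WT noCys and 57.3 to 104 CPM in KO noCys. The interaction of cysteine removal with genotype was -1.13 (adjusted p = 0.028) for Foxo1 and -0.92 (adjusted p = 0.0419) for Foxo3. Those 2 interactions stayed called in 7 and in 3 of the 14 fits that left out a library, at -1.43 to -0.97 and -1.17 to -0.79. Against KO CTR 7 of 25 were called, 3 higher and 4 lower, beside 20.2% of all genes, with Ptprf (-0.44), Foxo3 (-0.78), Shc1 (0.41) and Rheb (0.33) of smallest p. All 4 lost these calls without KO noCys replicate 3 (-0.37, -0.65, 0.39 and 0.34, adjusted p = 0.0526 to 0.0623). Ptprf lost it also with library totals alone (-0.32, adjusted p = 0.0538), and Rheb with no filter (0.31, adjusted p = 0.091) and without KO CTR replicate 1 (0.27) or KO noCys replicate 4 (0.32). In WT noTrp against WT CTR, the phosphatase Inppl1 was higher (0.59, adjusted p = 0.0157) and the PI3-kinase subunit Pik3r1 lower (-0.65, adjusted p = 0.0351), 2 of 25 beside 3.19% of all genes. Leaving out WT CTR replicate 3 or WT noTrp replicate 1 ended the Inppl1 call, and leaving out any 1 of the 5 libraries ended that of Pik3r1. limma-voom and the fit of only those groups called neither. Pik3r1 was also lower in KO noTrp than in KO CTR (-0.50, adjusted p = 0.0318), a call that stayed in 3 of 9 such fits and was lost with library totals alone.

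Among 3 genes that insulin is known to lower in liver, Pck1, for the gluconeogenic enzyme PEPCK, differed between KO noCys and WT noCys by -0.64 (SE 0.15, adjusted p = 0.0043), at 4332 to 5752 CPM beside 7156 to 7696 CPM. Its interaction of cysteine removal with genotype was -0.87 (SE 0.22, adjusted p = 0.0188), and its call was lost without WT CTR replicate 1 or KO noCys replicate 3 or 4 (-1.01 to -0.74 over 14 fits). G6pc (-0.22, adjusted p = 0.698) and Ppargc1a (-0.46, adjusted p = 0.541) were not called. Srebf1, a lipogenic factor that insulin raises, was -0.62 (adjusted p = 0.2) and not called. Pck1 thus stood on the opposite side of 0 from Igfbp1 and Irs2 in KO noCys against WT noCys.

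The members were also compared with each other across the 21 libraries, on log2 CPM, as a description of points that share groups and library scaling. Ghr and Igfals had a Pearson r of 0.90 and a Spearman rho of 0.87, and r was 0.74 without KO noCys replicates 3 and 4 and 0.63 for deviations from the group means. Igfbp1 and Irs2 had r of 0.56 and rho of 0.55, and r was 0.49 without WT CTR replicate 1 and WT noTrp replicate 1 and 0.68 within groups. Ghr and Igfbp1 had r of -0.67 and rho of -0.70, with -0.55 within groups. For Igf1 and Igfals r was 0.66, but only 0.17 within groups, and for Igf1 and Ghr it was 0.65, but -0.07 within groups. Of 9150 genes with a symbol and enough signal, the 3 most like Ghr were Adh4, Car1 and Glo1 (r of 0.96 each), those most like Igfals were St6gal1, Gcsh and Car1 (0.91, 0.91 and 0.90), and those most like Igf1 were B2m, Tcf4 and Gnaq (0.92, 0.89 and 0.88). Those nearest Igfbp1 were Mpzl3, Nsun2 and Got1 (0.92, 0.91 and 0.89), and those nearest Irs2 were Jmy, Pi4ka and Vps13a (0.83, 0.79 and 0.77).

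**Figure D5:**
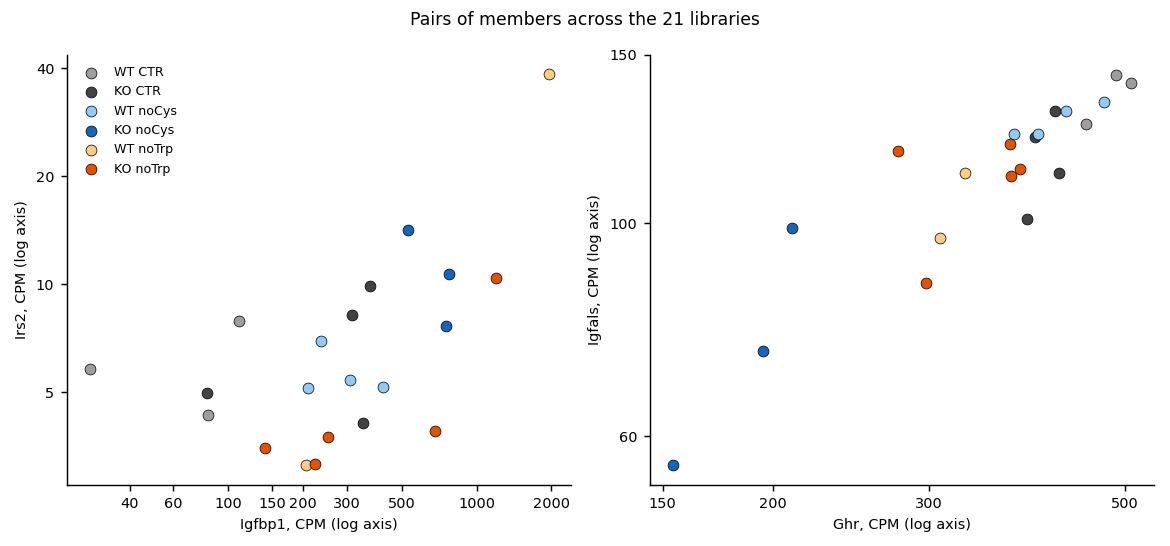
CPM of Irs2 against Igfbp1 (left) and of Igfals against Ghr (right) in the 21 libraries, both axes log, coloured by group. On the right the 3 KO noCys libraries lie lowest in Ghr, at 154 to 210 CPM, and on the left WT noTrp replicate 1 stands alone at 1946 CPM of Igfbp1 and 38.5 CPM of Irs2.

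Some markers of liver cell types also differed between KO noCys and WT noCys, where 28.2% of all genes were called and 13.4% called lower. The summed level of 8 hepatocyte genes was 48971 to 78479 CPM in KO noCys and 100986 to 112609 CPM in WT noCys, and 2 of the 8, Alb (-1.15) and Ttr (-1.03), were called lower. The other 6, among them Hnf4a (-0.10, adjusted p = 0.697) and Asgr1 (0.07, adjusted p = 0.677), were not called. They ran from -0.54 for Apoa1 (adjusted p = 0.1) to 0.09 for Cyp2e1 (adjusted p = 0.654). Of the markers of other liver cells, 3 of 8 endothelial, 1 of 8 immune, 2 of 5 bile duct and 0 of 7 stellate genes were called, those called being lower in KO noCys, and most genes of each list did not pass the test. The log2 values of all tested genes of these lists were below 0, at -0.69 to -0.09 for endothelial, -0.83 to -0.33 for immune, -1.64 to -0.76 for bile duct and -0.42 to -0.15 for stellate genes, beside a median of -0.02 over all genes. Of 4 adipocyte markers, Cidec was called higher (1.48, adjusted p = 0.00994) and Fabp4 lower (-0.81, adjusted p = 0.00896), while Adipoq and Plin1 were too low to test, at means of 0.0634 and 0.022 CPM and at 0 in 16 and 17 libraries. The adipocyte markers summed to 18.4 to 33.9 CPM in KO noCys and 17.5 to 22.9 CPM in WT noCys. Endothelial markers summed to 112 to 123 CPM in KO noCys and 124 to 185 CPM in WT noCys, and bile duct markers to 16.1 to 18.1 and 34.2 to 57.8 CPM. The part of these differences in the values of the members was not tested.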

How the data were processed

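Liver poly(A) RNA of 21 animals was sequenced from both ends. Per the labels, the authors aligned reads to GRCm38 with HISAT2 2.1.0 and counted them with HTSeq 0.11.0, and deposited raw gene counts in 1 table; the annotation release and strand setting are not given in the sources used here. Samples were grouped by title. 1 column that carried no sample's name was left out.

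Testing used edgeR 4.0.16 (R 4.3.3): filterByExpr (minimum count 10, minimum total 15), TMM, with factors of 0.883 to 1.14, 1 model with a mean per group for the 6 groups, and two-sided quasi-likelihood F-tests with Benjamini-Hochberg adjustment over 14370 genes. The SE was the log2 fold change divided by the root of F. The edgeR fit was first tested on simulated counts for KO noCys against WT noCys and for KO CTR against WT CTR. The alternatives were not tested in that way. Alternatives were DESeq2 1.42.0, limma-voom (limma 3.58.1) with quality weights, RLE size factors, library totals alone, no filter, a fit restricted to the groups of the comparison, a block for the replicate number, and every library left out once.

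The members and all gene lists were chosen with earlier results of these data known. Genes named were the members, Cth, up to 4 called genes of smallest adjusted p per list and comparison, any gene needed to account for a count of 5 or fewer, and for each member the 3 genes of highest correlation. Named beyond that rule, after their values were seen, were G6pc, Ppargc1a, Srebf1, Stat5a, Stat5b, Hnf4a, Asgr1, Apoa1 and Cyp2e1. Symbols and exon lengths came from GENCODE M21. Counts of amino acids in the member proteins were planned and not run here.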

Additional observations from a re-analysis of the deposited data

Results flagged for a closer look

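In 30 sets of 4 or 5 libraries (10 members in 3 groups), 6 had a single library far from the others by Dixon's criterion, which chance gives in about 1 of 20 sets. Igfbp2 was 1456 CPM in WT noCys replicate 2, and Insr was 176 CPM in WT noCys replicate 3. Irs2 was 6.95 CPM in WT noCys replicate 4 and 10.4 CPM in KO noTrp replicate 1. Irs1 was 4.1 CPM in KO CTR replicate 2. Igfals was 86.7 CPM in KO noTrp replicate 2, the lone low value among these.

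In 4 cases a difference between groups depended on the other factor by edgeR's quasi-likelihood test. The effect of cysteine removal on Ghr differed between the genotypes by -0.92 (adjusted p = 0.00393). The genotype difference without cysteine and that without tryptophan differed by -1.26 for Ghr (adjusted p = 0.000589), by -0.83 for Igfals (adjusted p = 0.0287) and by 2.99 for Irs2 (adjusted p = 0.0228). The last of these was 0.26 without WT noTrp replicate 1.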

How the results depend on the processing

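Ghr kept its call in KO noCys against WT noCys, against KO CTR and against KO noTrp under all 7 alternatives and with each library left out. Numbers of members called moved as follows, with those that changed by 1.5 times or less given last. Library totals alone gave 3 for KO noCys against WT noCys and 2 for KO noCys against KO CTR, as the median of all genes moved to 0.20 and 0.13 log2 and the share of called genes that were higher from 52.5% to 80% and from 52.6% to 73.7%; relative to that median Ghr was -1.17 and -1.14, and Igfbp2 and Insr were -0.75 and -0.48 in the first. Without the filter 1 was called for KO noTrp against WT noTrp and 2 for the cysteine interaction. DESeq2 called 2 for that interaction. limma-voom called 1 for WT noCys against WT CTR, 0 for WT noTrp against WT CTR and 3 for the cysteine interaction, and the fit of only the groups compared 1, 0 and 2. With the replicate number as a block, 1 was called for KO noTrp against KO CTR, 1 for WT noTrp against WT CTR, 2 for the cysteine interaction and 4 among the 6 groups. The titles do not say that the numbers mark pairs. Same-numbered libraries had correlations of deviations from -0.36 to 0.35. In KO noTrp against WT noTrp the 2 pairs had 0.13 and 0.35, and no other comparison had all over 0.1. With so few pairs these values cannot settle whether the samples were paired. The smaller moves were limma-voom to 6, 5 and 4 for KO noCys against WT noCys, KO CTR and KO noTrp, the fit of only the groups compared to 7, 3 and 2 for the same, DESeq2 to 3 for WT noTrp against WT CTR, limma-voom, library totals, the block and the fit of only the groups compared to 2 for the genotype effect on both diets, and limma-voom to 6 and library totals to 5 among the 6 groups. With 1 library left out, the numbers called ran from 2 to 5 for KO noCys against WT noCys (2 without KO noCys replicate 3, 3 without replicate 4), 1 to 4 for KO noCys against KO CTR (1 without KO noCys replicate 3, 2 without KO noCys replicate 4 or KO CTR replicate 1 or 3), 2 to 4 for KO noCys against KO noTrp, 0 to 2 for WT noTrp against WT CTR, 0 to 1 for KO noTrp against WT noTrp and for the tryptophan interaction, 1 to 2 for the cysteine interaction, 1 to 3 for the genotype effect on both diets (1 without KO noCys replicate 3 or 4 or WT noTrp replicate 1) and 4 to 7 among the 6 groups (4 without WT CTR replicate 1 or KO noCys replicate 3 or 4). They stayed at 0 for KO CTR against WT CTR, WT noCys against WT CTR and KO noTrp against KO CTR. Irs2 reversed without WT noTrp replicate 1, and with 1 library left out ran from -2.93 to 0.68 for KO noTrp against WT noTrp, from -0.92 to 2.69 for WT noTrp against WT CTR and from -3.14 to 0.47 for the tryptophan interaction. Beyond fewer samples or genes tested, the causes were not tested. WT noTrp has 2 libraries, which limits every comparison with it.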
